A study of Homo sapiens with 6 samples.

Results

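The genes of fibrillar collagen chains were examined, which belong here to 6 collagen types, namely COL1A1 and COL1A2 (collagen I), COL3A1 (collagen III), COL5A1, COL5A2 and COL5A3 (collagen V), COL11A1 (collagen XI), COL24A1 (collagen XXIV) and COL27A1 (collagen XXVII). They were picked by gene symbol and are 9 of the 58676 gene identifiers in the count table. Of the other fibrillar chain genes, COL2A1 had no count and COL11A2 had 1 count in all 6 libraries, so that neither could be tested. Fibrillar collagens are the main tensile proteins of connective tissue, and lung fibroblasts are a principal source of them. Each fibrillar collagen is built from alpha chains that wind into a triple helix in the endoplasmic reticulum, are secreted as procollagen, lose their end propeptides and then assemble side by side into fibrils. Collagens I and III form the bulk of the fibrils of the lung interstitium, collagens V and XI sit inside them and set how fibrils start and how thick they grow, and excess deposition of collagens I and III is a hallmark of lung fibrosis.

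The RNA came from MRC5 cells, an established line of human lung fibroblasts, kept for 24 h in conditioned media (CM) of ATIIER:KRASV12 cells. These are a human alveolar epithelial type II (ATII) line that carries an inducible KRASV12, which 4-hydroxytamoxifen (4-OHT) switches on. In the group called control ATII CM (3 libraries) the medium came from control ATIIER:KRASV12 cells, and in the group called 4-OHT ATII CM (3 libraries) from cells given 4-OHT for 24 h. Both groups thus shared the epithelial line, its transgene and the exposure time, no TGF-β is named in the labels of either, and any 4-OHT left in the medium cannot be told apart from factors that the cells released. The libraries are called control 1, 2 and 3 and 4-OHT 1, 2 and 3 by the replicate numbers of the labels. The labels do not say whether the libraries of a group are separate cultures or separate batches of medium, so p-values measure the spread between these libraries, which may be technical.

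Poly(A) RNA was sequenced as read pairs of 150 bases, and library totals ran from 17691849 counts in control 2 to 26389449 in 4-OHT 3. The groups lay apart on the first principal component (43.4% of the variance), while the second (23.3%) set control 2 apart from the other libraries. Of 15 markers of lung fibroblasts, 14 passed the count filter, and their summed level was 9311 to 9461 CPM (counts scaled to library size) in the controls and 10377 to 10780.2 CPM in the 4-OHT libraries. Most of that rise lay in DCN, which went from a mean of 3878 to 4872 CPM. Of these markers 5 were upregulated (PDGFRA, LUM, DCN, FBLN1 and TCF21) and 2 downregulated (VIM and NT5E), 7 of 14 where 5.72% of all genes tested passed, and the part of this shift in the results was not tested. VIM passed in 13 and TCF21 in 15 of 19 settings and the other 5 in all, and with 1 library left out 5 to 7 were called (5 without control 3, 4-OHT 2 or 4-OHT 3). Of 18 ATII and epithelial markers, 7 passed the filter, none was a differentially expressed gene (DEG) or had an unadjusted p below 0.05 with edgeR, DESeq2 or limma-voom, and their sum was 11.4 to 13.0 CPM against 9.86 to 11.6 CPM. SFTPA1, SFTPA2, NKX2-1, SLC34A2 and ESRP1 were at 0 in every library.

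The chains of collagen V differed widely in level, and the stretches upstream of COL5A1 and of COL5A3, the least abundant of them, are shown for that reason. COL5A1 encodes the chain found in nearly all collagen V molecules, and COL5A3 a chain restricted to fewer tissues. The sequences are from RefSeq on GRCh38.p14, which matched 5 of the 9 genes, and they run 5′ to 3′ towards the gene. The first covers chr9:134641553-134641773 on the plus strand and stops where the first exon of the count table begins, 29 bases short of the RefSeq start. The second covers chr19:10010505-10010754 on the minus strand and ends at the RefSeq start. Capitals mark the letters CCAAT (read by NF-Y) and GGGCGG (read by SP1) on either strand, both of which have been studied as promoter elements of collagen genes.
COL5A1: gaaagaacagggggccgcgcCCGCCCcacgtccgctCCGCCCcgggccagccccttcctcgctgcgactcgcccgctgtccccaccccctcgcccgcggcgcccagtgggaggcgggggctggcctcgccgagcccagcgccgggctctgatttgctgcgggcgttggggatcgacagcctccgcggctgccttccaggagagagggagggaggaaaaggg
COL5A3: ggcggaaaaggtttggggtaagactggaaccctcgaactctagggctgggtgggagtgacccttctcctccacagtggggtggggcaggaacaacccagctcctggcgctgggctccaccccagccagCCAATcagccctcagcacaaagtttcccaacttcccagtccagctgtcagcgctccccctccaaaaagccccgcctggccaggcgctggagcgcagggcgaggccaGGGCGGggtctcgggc

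COL5A1 held GGGCGG at 230 and 214 bases before the RefSeq start and no CCAAT, whereas COL5A3 held CCAAT at 122 bases and GGGCGG at 16 bases before it. Over the 250 bases before the start, 74% of the letters were G or C in COL5A1 and 66% in COL5A3. The letters TATAAA were in neither. These letters are common, since of 27305 promoters of the same length 33% held CCAAT, 42.3% held GGGCGG and 11.1% held TATAAA on either strand. Among the 5 matched genes, 4 held GGGCGG and 2 held CCAAT. Such matches describe the sequence only and say nothing of whether a factor binds there.

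Which chains do these fibroblasts express? Levels between genes are given as CPM per kb of merged exon, since a longer gene collects more counts from the same number of transcripts. The 9 chains spanned a 1714-fold range and fell into an abundant and a scarce set. COL1A1 was highest with a mean of 1749.8 CPM per kb over the 6 libraries, followed by its partner COL1A2 with 1175 CPM per kb. COL3A1, whose product forms homotrimers that join collagen I in mixed fibrils, was at 759 CPM per kb. COL5A2 and COL5A1 came next with 308 and 137 CPM per kb.

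In the scarce set, COL11A1 was at 6.03 CPM per kb and COL27A1, known mainly from cartilage, at 5.45 CPM per kb. COL5A3 was at 1.92 CPM per kb, so that COL5A1 stood 71.0-fold above it. COL24A1, known mainly from developing bone, was lowest at 1.02 CPM per kb. In undivided CPM, COL1A1, COL1A2 and COL3A1 ranked 2, 3 and 8 among the 19072 genes tested, while COL5A3 and COL24A1 ranked 8544 and 9256.

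**Figure D1:**
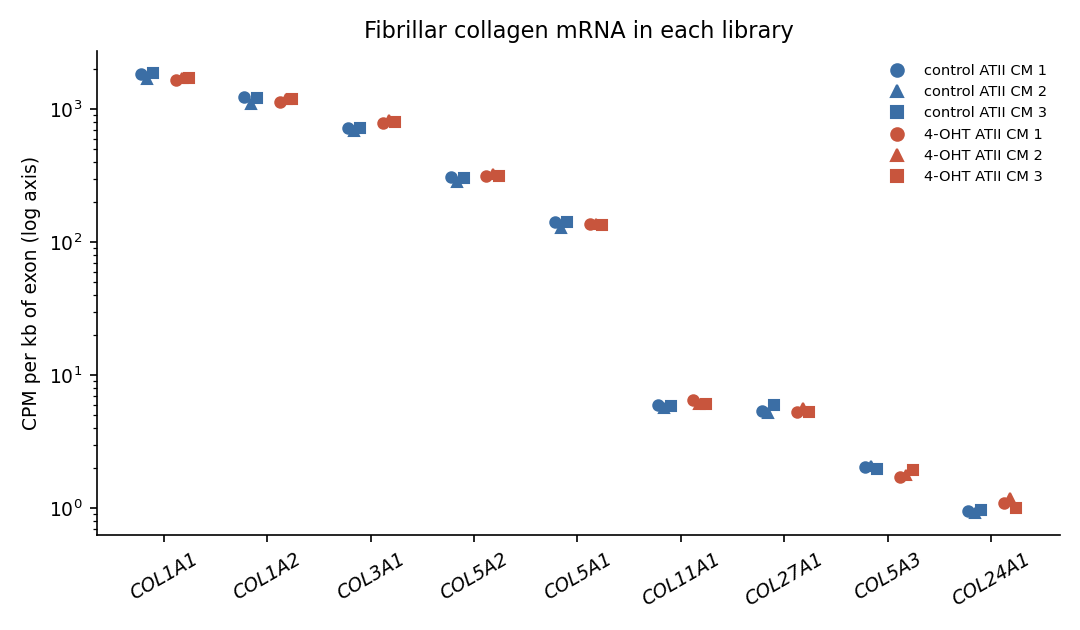
Level of each fibrillar collagen chain in CPM per kb of merged exon (log axis), with 1 point per library, blue for control ATII CM and red for 4-OHT ATII CM, and the marker shape giving the replicate number. COL1A1 to COL5A1 lie above 100 CPM per kb and COL11A1 to COL24A1 below 10, and the distance between the groups is small beside the distance between chains.

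The order of the chains was the same in both groups, and neighbours in it were separated in all 6 libraries with 1 exception. COL11A1 ran from 5.64 to 6.004 CPM per kb in the controls and COL27A1 from 5.18 to 6.01 CPM per kb, so their order could not be told there. In the 4-OHT libraries the lowest value of COL11A1 (6.02 CPM per kb) was above the highest of COL27A1 (5.64 CPM per kb). Dividing by the length of the GENCODE canonical transcript, a choice made after seeing the data, or not dividing at all put COL27A1 in place 6 and COL11A1 in place 7. The other 7 chains kept their places under both.

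The 9 chains together took 4.08%, 3.76% and 4.08% of all counts in control 1, 2 and 3 and 3.85%, 3.95% and 3.93% in the 4-OHT libraries. The means were 3.97% ± 0.184 (SD, n = 3) and 3.91% ± 0.0504 (SD, n = 3), and all 4-OHT libraries lay between control 2 and the other controls. COL1A1, COL1A2 and COL3A1 made up 89.5% to 90.2% of these counts. The difference of the means, -0.064 percentage points, was smaller than the spread of the control libraries, but that spread came from control 2. The difference was -0.17 percentage points without control 2, where both remaining controls lay above all 4-OHT libraries, and -0.0086 and -0.012 without control 1 and 3. In bulk RNA, fewer expressing cells and less RNA per cell cannot be told apart.

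Did CM of 4-OHT-treated ATIIER:KRASV12 cells change the chains? COL3A1 alone was a DEG, upregulated by 13.3% (95% interval 9.13% to 17.7%). That is 1 of 9 chains, where 5.72% of all 19072 genes tested were DEGs at an adjusted p below 0.05 (edgeR, Benjamini-Hochberg), 2.95% upregulated and 2.76% downregulated. The number of chains called was between 1 and 3 over all settings, and it was 3 without control 2 and with no filter on low counts. All 9 chains passed the count filter, 4 had a log2 fold change above 0 and 5 below, and the median was -0.0034 against -0.0020 over all genes. An unadjusted p below 0.05 was found for 4 chains, namely COL3A1, COL1A1, COL5A2 and COL24A1, and for 17.3% of all genes.

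The 3 values of one group lay wholly above those of the other in 5 chains, and this was so for 22.1% of all genes. COL3A1, COL5A2, COL11A1 and COL24A1 were the 4 whose 4-OHT libraries were all higher (11.7% of all genes), and COL5A3 was the 1 whose libraries were all lower (10.4% of all genes). COL1A1, COL1A2, COL5A1 and COL27A1 overlapped. In 8 of the 9 chains control 2 was the lowest control library, and COL5A3 was the exception. How often this held over all genes was not counted. It requires control 2 to lie below the mean of the other controls, which held for 49.4% of 9691 expressed genes.

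Collagen III is the distensible partner of collagen I and is known to be laid down early in repair. COL3A1 (ENSG00000168542) lies on chromosome 2 of GRCh38, 188974320 to 189012746, plus strand, with 6811 bases of merged exon. Its level was 4952, 4685 and 4906 CPM in control 1, 2 and 3 and 5385, 5610.2 and 5484 CPM in 4-OHT 1, 2 and 3. All 4-OHT libraries were above all 3 controls, and the gap between the groups was wider than the spread within either. The log2 fold change was 0.18 (standard error, SE, 0.0255, 95% interval 0.13 to 0.23, adjusted p = 0.000463, edgeR). It remained a DEG in all 19 settings examined, with log2 fold changes of 0.15 to 0.20 and adjusted p of 6.05e-10 to 0.00587. No other gene of the annotation matched its transcripts at 95% identity over at least 100 bases, and the only overlapping gene, MIR3606, shares 1 base and had no counts.

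COL5A2 is the neighbour of COL3A1, on the opposite strand and 19149 bases away (ENSG00000204262, chromosome 2, 189031896 to 189225312, 7453 exon bases), and its product pairs with that of COL5A1 in collagen V. It was at 2304, 2114 and 2269 CPM in the controls and at 2326, 2407 and 2358 CPM in the 4-OHT libraries. The groups did not overlap, but control 1 lay just under the lowest library of the other group. The log2 fold change was 0.085 (SE 0.0310, 95% interval 0.019 to 0.15), and the adjusted p of 0.147 from edgeR did not pass. It passed in 1 of 19 settings, the one with no filter on low counts, where the log2 fold change was 0.093 and the adjusted p was 0.0328. Without control 2 the log2 fold change was 0.048.

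COL1A1 (ENSG00000108821, chromosome 17, 50183289 to 50201632, minus strand, 9819 exon bases) encodes the chain that makes up the larger part of each collagen I trimer. Its level was 18126, 16651 and 18417 CPM in control 1, 2 and 3 and 16314, 16808 and 16770.4 CPM in 4-OHT 1, 2 and 3. Control 2 lay inside the range of the other group, and the remaining controls lay above it. The log2 fold change was -0.092 (SE 0.0294, 95% interval -0.16 to -0.030, adjusted p = 0.0861, edgeR). The value stayed below 0 in all 19 settings and passed the threshold in 8 of them. Without control 2 the log2 fold change was -0.14 and the adjusted p was 1.8e-05.

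COL1A2 (ENSG00000164692, chromosome 7, 94394561 to 94431232, plus strand, 11156 exon bases) encodes the other chain of the trimer. It was at 13697, 12239 and 13574 CPM in the controls and at 12636, 13277 and 13197 CPM in the 4-OHT libraries. All 4-OHT libraries fell between control 2 and the other controls. The log2 fold change was -0.015 (SE 0.0339, 95% interval -0.087 to 0.057, adjusted p = 0.888, edgeR), and its sign differed between settings. Without control 2 it was -0.065 with an adjusted p of 0.0411, and with the exon length trend removed as well it was -0.017 with an adjusted p of 0.697.

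COL5A1 (ENSG00000130635, chromosome 9, 134641774 to 134844843, plus strand, 11189 exon bases) had the log2 fold change smallest in size of the 9 with all libraries. It was -0.0034 (SE 0.0366, 95% interval -0.081 to 0.074, adjusted p = 0.979, edgeR). Its levels were 1573, 1420.3 and 1596 CPM in the controls and 1543, 1525 and 1511 CPM in the 4-OHT libraries. The pattern was that of COL1A2, with control 2 lowest of all 6 libraries and the other controls highest. Its sign also differed between settings. Without control 2 it was -0.054, larger in size than the 0.048 of COL5A2.

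The scarce chains carried wider intervals. COL24A1 (ENSG00000171502, chromosome 1, 85729233 to 86156943) was at 9.09, 8.85 and 9.22 CPM in the controls and at 10.5, 11.3 and 9.63 CPM in the 4-OHT libraries, which correspond to 158 to 283 counts a library. Its groups did not overlap, and the log2 fold change of 0.21 was the largest among the 9 (SE 0.0908, 95% interval 0.015 to 0.40, adjusted p = 0.242, edgeR). Without 4-OHT 2 it was 0.14, below the 0.16 of COL3A1. COL5A3 (ENSG00000080573, chromosome 19, 9959561 to 10010471) was at 13.9, 13.9 and 13.4 CPM against 11.5, 12.03 and 13.2 CPM. All its 4-OHT libraries were lower, though the highest lay just under the lowest control, and the log2 fold change was -0.16 (SE 0.0790, 95% interval -0.33 to 0.0059, adjusted p = 0.309, edgeR). An antisense gene with at most 1 count a library, ENSG00000267650, shares 270 of its exon bases.

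COL11A1 (ENSG00000060718, chromosome 1, 102876467 to 103108872) ran at 54.6, 51.2 and 53.7 CPM in the controls and at 59.1, 54.7 and 55.4 CPM in the 4-OHT libraries. The groups were separated only by the small step from 54.6 to 54.7 CPM, and the log2 fold change was 0.082 (SE 0.0439, adjusted p = 0.367, edgeR). It ranged from 0.054 without 4-OHT 1 to 0.10 without 4-OHT 2. COL27A1 (ENSG00000196739, chromosome 9, 114155560 to 114312511) had 75.4, 72.5 and 84.0 CPM against 73.6, 78.9 and 73.5 CPM. These groups overlapped, with a log2 fold change of -0.040 (SE 0.0515, adjusted p = 0.770, edgeR) whose sign differed between settings, from -0.082 without control 2 to 0.020 without control 3. The 95% intervals of both chains, -0.011 to 0.18 and -0.15 to 0.070, included 0.

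**Figure D2:**
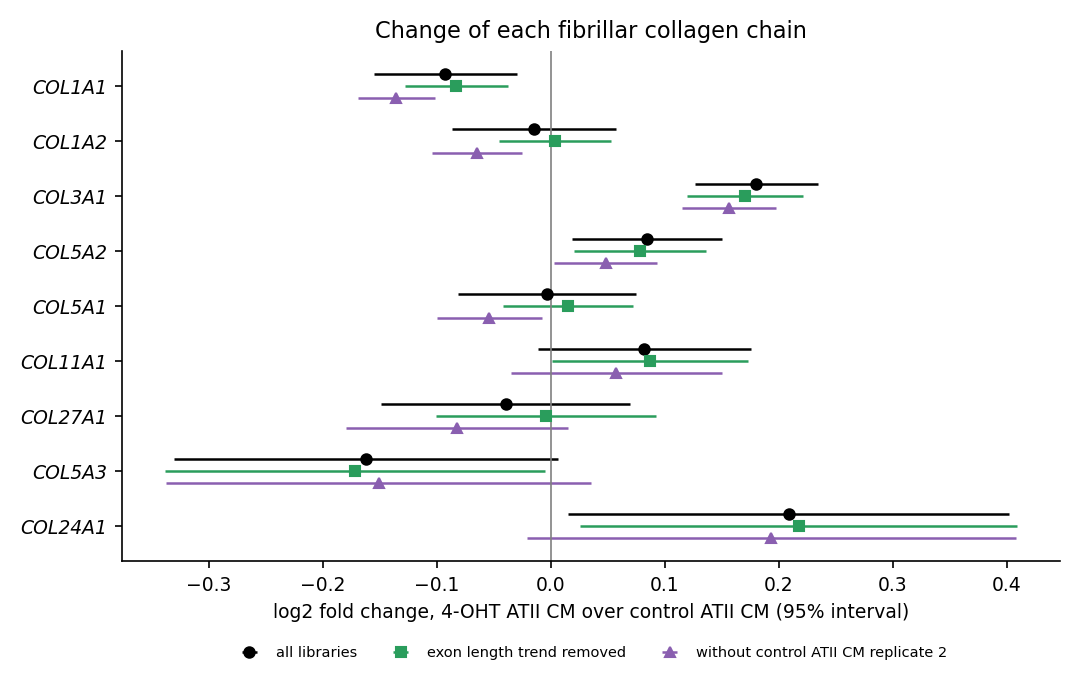
Log2 fold change of each chain in 4-OHT ATII CM over control ATII CM with its 95% interval from edgeR, for all libraries (black circles), with each library's exon length trend removed (green squares) and without control ATII CM 2 (purple triangles). COL3A1 lies right of 0 in all 3 fits, COL1A1 lies left of 0 in all 3 and moves from -0.092 to -0.14 without control ATII CM 2, and COL1A2 and COL5A1 change sides.

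The proportion of chains within a library does not depend on how libraries are scaled to each other, and it is of interest because chains of one trimer or fibril are assembled together. Per kb, COL3A1 was at 0.394, 0.406 and 0.384 of COL1A1 in control 1, 2 and 3 and at 0.476, 0.481 and 0.471 in the 4-OHT libraries. The means were 0.395 ± 0.0108 and 0.476 ± 0.00492 (SD, n = 3 each), a log2 difference of 0.27 or 20.7%, and the groups did not overlap. An exact two-sided permutation test gave p = 0.1 (0.12 adjusted over the 6 ratios computed), which is the smallest p that 20 splits of 3 against 3 allow, so that no ratio could reach 0.05. COL3A1 to COL1A2 was 0.604 ± 0.0202 in the controls and 0.690 ± 0.00886 in the 4-OHT libraries, a log2 difference of 0.19 (exact permutation p = 0.1).

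COL1A1 to COL1A2, the chains of collagen I, was 1.504, 1.546 and 1.541 in the controls and 1.467, 1.438 and 1.444 in the 4-OHT libraries. The means were 1.53 ± 0.0232 and 1.45 ± 0.0151 (SD, n = 3 each), the log2 difference was -0.078 and the groups did not overlap (exact permutation p = 0.1). The absolute ratio rests on the lengths used, because merged exons include stretches that few transcripts hold, and with canonical transcript lengths it was 1.13 over all libraries. The difference between groups does not depend on that choice, since the lengths are the same in every library.

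For collagen V, COL5A1 to COL5A2 was 0.457 ± 0.0107 in the controls and 0.430 ± 0.0105 in the 4-OHT libraries, a log2 difference of -0.087 whose groups were separated by the step from 0.448 to 0.442. COL5A1 to COL1A1, the collagen V chain against the bulk collagen, was 0.0757 ± 0.00073 and 0.0806 ± 0.00214, a log2 difference of 0.090. Both had an exact permutation p of 0.1. COL5A3 to COL5A1 was 0.0149 ± 0.00122 and 0.0133 ± 0.00105 with overlapping groups (exact permutation p = 0.2). The groups did not overlap in 5 of the 6 ratios, but ratios that share a chain are not separate observations.

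Control 2 was the control nearest to the 4-OHT libraries in 3 of the 6 ratios and the farthest from them in the other 3. It was nearest for COL3A1 to COL1A1 (0.406), for COL3A1 to COL1A2, at 0.627 against 0.592 in each of the other controls, and for COL5A1 to COL5A2 (0.448). Leaving out any 1 library kept the sign of all 6 differences, and that of COL3A1 to COL1A1 stayed between 0.25 and 0.29. With the exon length trend removed it was 0.25, and that of COL1A1 to COL1A2 was -0.086.

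**Figure D3:**
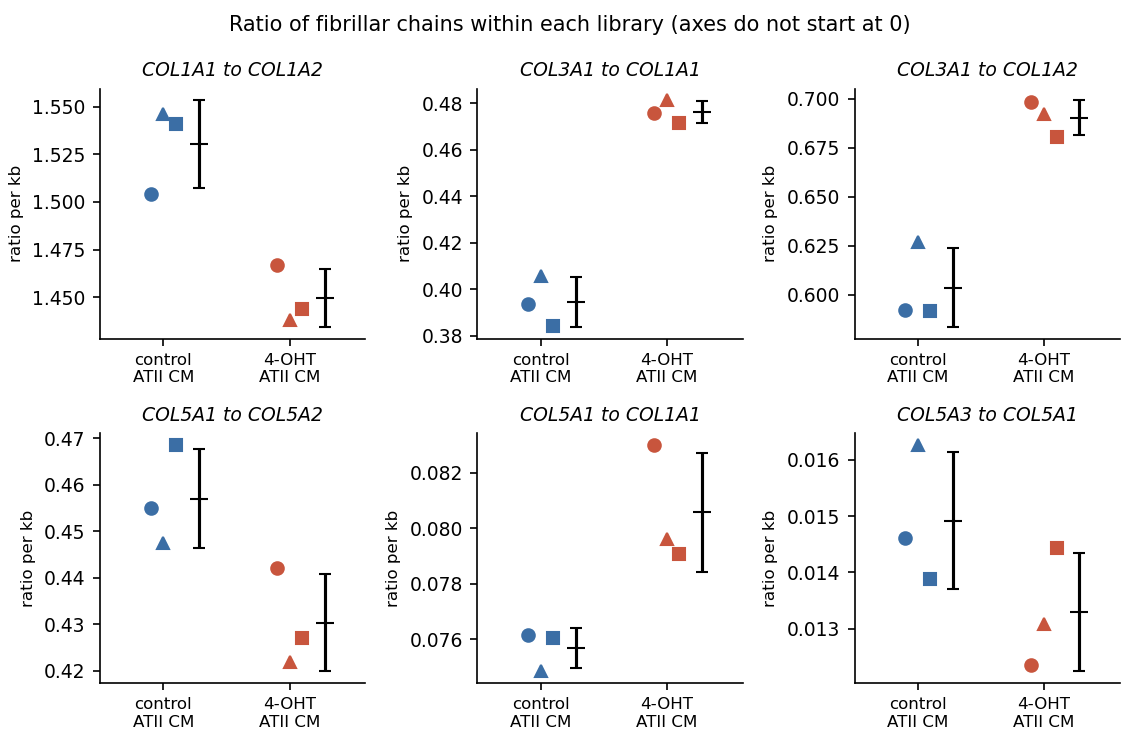
Ratio of chains per kb within each library for 6 pairs, with 1 point per library, the marker shape giving the replicate number, and the bars the mean and SD of each group (axes do not start at 0). For COL3A1 to COL1A1 the control libraries sit between 0.384 and 0.406 and the others between 0.471 and 0.481, while COL5A3 to COL5A1 overlaps.

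All 9 chains are long transcripts, so a trend of the libraries on exon length bears on them. Their merged exons ran from 6750 bases in COL5A3 to 13988 bases in COL27A1 with a median of 9568, and all 9 were longer than the median of 5439 bases over the 9691 genes with a mean log2 CPM above 3. Across these genes, the deviation of a library's log2 CPM from the mean over libraries was correlated with exon length at a Spearman rho of -0.306 in control 2, and at 0.285 and 0.148 in control 1 and 3. In the 4-OHT libraries the values were -0.025, -0.052 and -0.031. Genes are not independent replicates, and these values describe the libraries. Long genes were thus low in control 2 and high in the other controls, while the log2 fold change between groups had a rho of -0.055 with length.

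The chains were compared with this trend one by one. In control 2 the log2 CPM of 8 of the 9 was below the mean of the other controls (49.4% of the 9691 genes), with a median gap of -0.11, where the fitted trend gave a median of -0.073 for genes of their lengths. The gap was -0.13 for COL1A1 (trend -0.077), -0.16 for COL1A2 (trend -0.096) and -0.16 for COL5A1 (trend -0.097). COL3A1, with shorter exons, had a gap of -0.073 (trend -0.021), and COL5A2 one of -0.11 (trend -0.034). COL27A1, the longest, was close to its trend (-0.14 against -0.13), and COL5A3, the shortest, was above 0 (0.034). In all, 7 of the 9 were lower in control 2 than their length gave, as were 46.7% of the 9691 genes, and for COL27A1 the distance was only -0.0053.

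**Figure D4:**
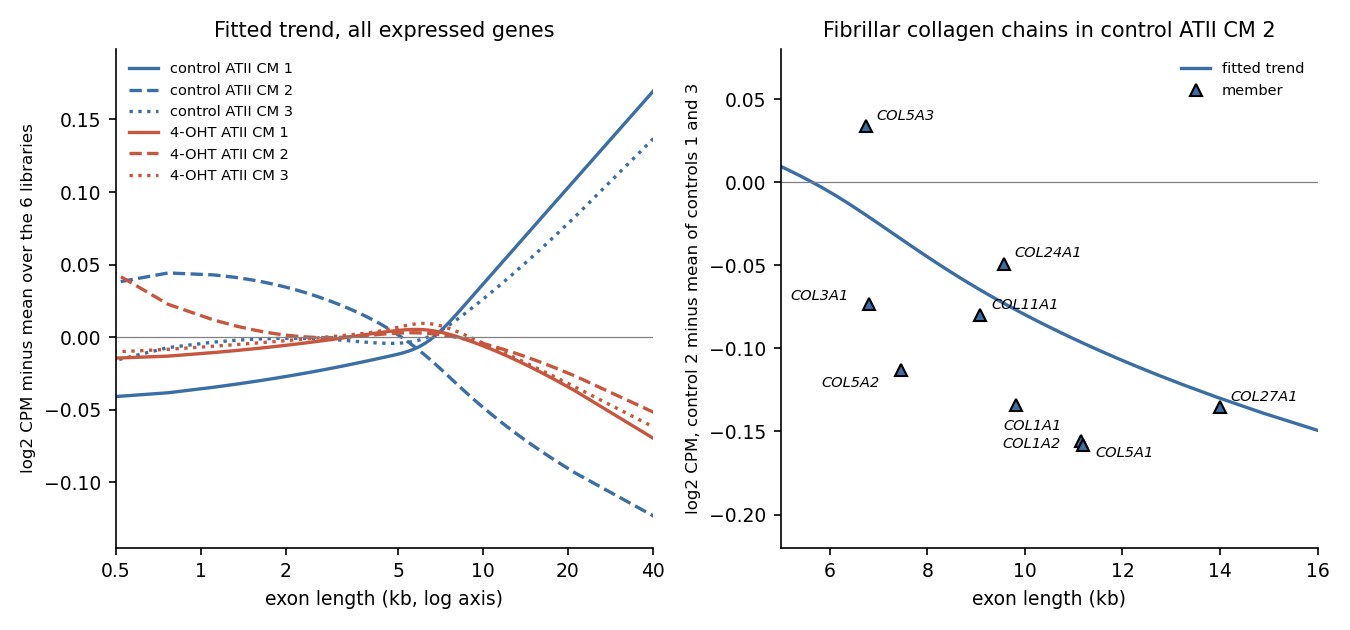
Left, fitted trend of log2 CPM, as the difference from the mean over the 6 libraries, against exon length (kb, log axis) for each library. Right, log2 CPM of each chain in control ATII CM 2 minus the mean of control ATII CM 1 and 3 against exon length, with the same difference of the fitted trends as a line: 8 of 9 chains lie below 0 and 7 of 9 below the line.

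Removing each library's length trend left COL3A1 at a log2 fold change of 0.17 (adjusted p = 0.000211, edgeR) and COL1A1 at -0.083, now with an adjusted p of 0.0245. The deviations were also correlated with GC content, at a Spearman rho of 0.251 in control 2, -0.158 and 0.0546 in control 1 and 3, and -0.213, 0.0919 and -0.0863 in the 4-OHT libraries. Removing a trend on GC content as well took COL1A1 to -0.063 and its adjusted p to 0.0999. With control 2 left out and the length trend removed from the remaining libraries, an alternative added after seeing the data, COL1A1 was at -0.10 (adjusted p = 0.000301) and COL3A1 at 0.15 (adjusted p = 3.49e-05). The value of COL1A1 therefore ranged from -0.14 to -0.063 over all settings, and the adjusted p from 1.8e-05 to 0.291. What set control 2 apart was not tested.

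Genes that act on fibrillar collagen were followed through 9 lists with 117 genes, 106 of them tested. Of these, 8 were upregulated and 5 downregulated DEGs (12.3%, against 5.72% of all genes), and their median log2 fold change was 0.018. This count depended on single libraries, with 8 DEGs without either 4-OHT 2 or 3 and 20 without control 2. All 22 enzymes and chaperones of chain modification and folding passed the count filter, and edgeR on all libraries called none of them, with 5 at an unadjusted p below 0.05 (17.3% of all genes). PLOD3, a lysyl hydroxylase, had a log2 fold change of -0.12 (adjusted p = 0.0670) and passed in 4 of 19 settings, DESeq2 and limma-voom among them. It shares 429 exon bases with ZNHIT1 on the opposite strand, which had 1602 to 2289 counts a library. SERPINH1, the collagen chaperone HSP47, had a log2 fold change of 0.066 (adjusted p = 0.213) and passed in 2 of 19, both without control 2 (lowest adjusted p 0.0142). The highest per kb was HSPA5, the endoplasmic reticulum chaperone BiP, with 1312 ± 13.8 CPM in the controls and 1258 ± 24.0 CPM in the 4-OHT libraries (SD, n = 3 each, adjusted p = 0.238).

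Of 13 genes of procollagen export, 1 was downregulated, as were 2.76% of all genes. This was CREB3L1, a transcription factor that turns on COL1A1 and secretory genes, at 345, 359 and 341 CPM in the controls and 305, 321 and 314 CPM in the 4-OHT libraries. Its log2 fold change was -0.15 (SE 0.0338, adjusted p = 0.0135, edgeR), and it did not pass without 4-OHT 1 or 3 (adjusted p = 0.0927 and 0.0606). Of 11 genes of propeptide cleavage, 8 were tested and edgeR, DESeq2 and limma-voom called none, with 2 at an unadjusted p below 0.05 from edgeR (17.3% of all genes). PCOLCE, which enhances cleavage of the C-propeptide, was the highest of these with 389 ± 3.68 and 411 ± 8.81 CPM (SD, n = 3 each, adjusted p = 0.169).

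Of 17 proteins that bind fibrils as they assemble, 16 were tested, and 4 were upregulated and 1 downregulated (2.95% and 2.76% of all genes). This count of 5 was 2 without 4-OHT 2 and 8 without control 2. The small leucine-rich proteoglycans decorin, lumican and fibromodulin coat collagen fibrils and limit their thickness, and these 3 rose. BGN, PRELP and OGN, of the same family and list, had log2 fold changes of 0.094, -0.19 and 0.54 and did not pass (adjusted p = 0.136, 0.792 and 0.850). BGN was at 379 and 405 CPM in control and 4-OHT libraries. PRELP was low, at 1.07 and 0.938 CPM, and OGN near the floor, at 0.0616 and 0.0985 CPM. DCN and LUM are also among the fibroblast markers that rose. DCN went from 3878 ± 5.38 to 4872 ± 139 CPM (SD, n = 3 each), and its log2 fold change was 0.33 (SE 0.0242, adjusted p = 2.66e-06, edgeR). LUM rose by 0.29 on the log2 scale (SE 0.0306) and FMOD, at 17.0 and 21.9 CPM, by 0.36 (SE 0.0728). COL14A1, a collagen that attaches to fibril surfaces, rose by 0.35 (SE 0.0680). COL12A1, another collagen of the list, went the other way, from 1870 ± 363 to 1592 ± 27.3 CPM (SD, n = 3 each). Its log2 fold change was -0.23 (adjusted p = 0.173, edgeR), and it passed in 3 of 19 settings. COL14A1 and FMOD did not pass without 4-OHT 2 (adjusted p = 0.0519 and 0.0510), while DCN and LUM passed in all 19 settings.

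FN1 encodes fibronectin, on which collagen fibrils are first laid down, and it was the downregulated gene of that list. Its level was 7503, 5651 and 7274 CPM in the controls and 5538, 5416 and 5439.9 CPM in the 4-OHT libraries. Control 2 was again the lowest control, close to the other group, and the log2 fold change of -0.32 (SE 0.0684, adjusted p = 0.0107, edgeR) did not pass with DESeq2 (adjusted p = 0.0891) or without control 3 or 4-OHT 2 (adjusted p = 0.0542 and 0.0641). SPARC, a collagen chaperone outside the cell, was the highest per kb of the list and differed little, at 3538 ± 44.8 and 3486 ± 40.4 CPM (SD, n = 3 each, adjusted p = 0.711).

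Lysyl oxidases cross-link fibrils, and 2 of the 5 were downregulated, as were 2.76% of all genes. The count was 1 with the replicate number as a block and in every fit that left out 1 library except that without control 2. LOX was at 444, 423 and 444 CPM in the controls and at 395, 385 and 385 CPM in the 4-OHT libraries, with a log2 fold change of -0.17 (SE 0.0320, adjusted p = 0.00427, edgeR), and it passed in all 19 settings. LOXL2, highest of the family per kb, had a log2 fold change of -0.10 (SE 0.0265, adjusted p = 0.0356) and passed in 12 of 19. LOX shares 138 exon bases with SRFBP1 on the opposite strand, where reads cannot be told apart without strand. LOXL2 shares 178 with the antisense gene LOXL2-AS1, and 120 with ENTPD4 on the same strand, where strand would not separate them. CEBPB, MMP2, MRC2, PCOLCE, SMAD3 and SPARC overlap only genes with at most 52 counts a library.

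Among 8 of 10 receptors tested, 1 was upregulated, as were 2.95% of all genes. This was MRC2, the receptor by which fibroblasts take up collagen for degradation. Its log2 fold change was 0.10 (SE 0.0276, adjusted p = 0.0420, edgeR) and it passed in 9 of 19 settings. ITGA2 was at -0.15 (adjusted p = 0.107, edgeR) and passed in 6 of 19. ITGA1, which shares 475 exon bases with PELO on the same strand, was at 0.066 (adjusted p = 0.355, edgeR) and passed in 4. ITGB1, the beta subunit of the collagen-binding integrins, was highest per kb with 2673 ± 22.9 and 2794 ± 57.0 CPM (SD, n = 3 each, adjusted p = 0.164). Among 8 of 11 genes of breakdown tested, 1 was upregulated, as were 2.95% of all genes. This was MMP2, a gelatinase, which rose from 1413 ± 24.6 to 1552 ± 6.53 CPM (SD, n = 3 each, log2 fold change 0.14, SE 0.0256, adjusted p = 0.00454). It did not pass without 4-OHT 3 (adjusted p = 0.0501). TIMP2, an inhibitor of these enzymes, was at a log2 fold change of -0.091 (adjusted p = 0.0886) and passed as lower in 6 of 19 settings, DESeq2 and limma-voom among them. MMP1, the interstitial collagenase, was at -0.25 (adjusted p = 0.0798) and passed as lower in 4 of 19. CTSK and MMP14, of the same list, went the other way, at 0.14 and 0.080 (adjusted p = 0.0544 and 0.123, edgeR). CTSK passed in 5 of 19 settings and MMP14 in none. TIMP1, another inhibitor and the highest of the list per kb, was at 854 ± 12.8 and 865 ± 29.9 CPM (SD, n = 3 each, adjusted p = 0.827). MMP9 and MMP13 were at 0.

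The last list held 26 regulators of fibrillar collagen transcription and mRNA, 2 up (2.95% of all genes) and 1 down (2.76% of all genes). SMAD7, an inhibitor of TGF-β signalling, was at 38.0, 44.4 and 40.7 CPM in the controls and at 51.7, 53.8 and 56.3 CPM in the 4-OHT libraries, a log2 fold change of 0.40 (SE 0.0544, adjusted p = 0.000336, edgeR). SMAD3, a transducer of that signal that activates collagen genes, went from 370 ± 4.59 to 332 ± 3.38 CPM (SD, n = 3 each), and its log2 fold change was -0.16 (SE 0.0304, adjusted p = 0.00546). SMAD7 and SMAD3 passed in all 19 settings. CEBPB rose by 0.13 on the log2 scale (SE 0.0354, adjusted p = 0.0377) and passed in 12 of 19, and YBX1, the highest per kb, was at 805 ± 38.5 and 750 ± 1.39 CPM (SD, n = 3 each, adjusted p = 0.1001).

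**Figure D5:**
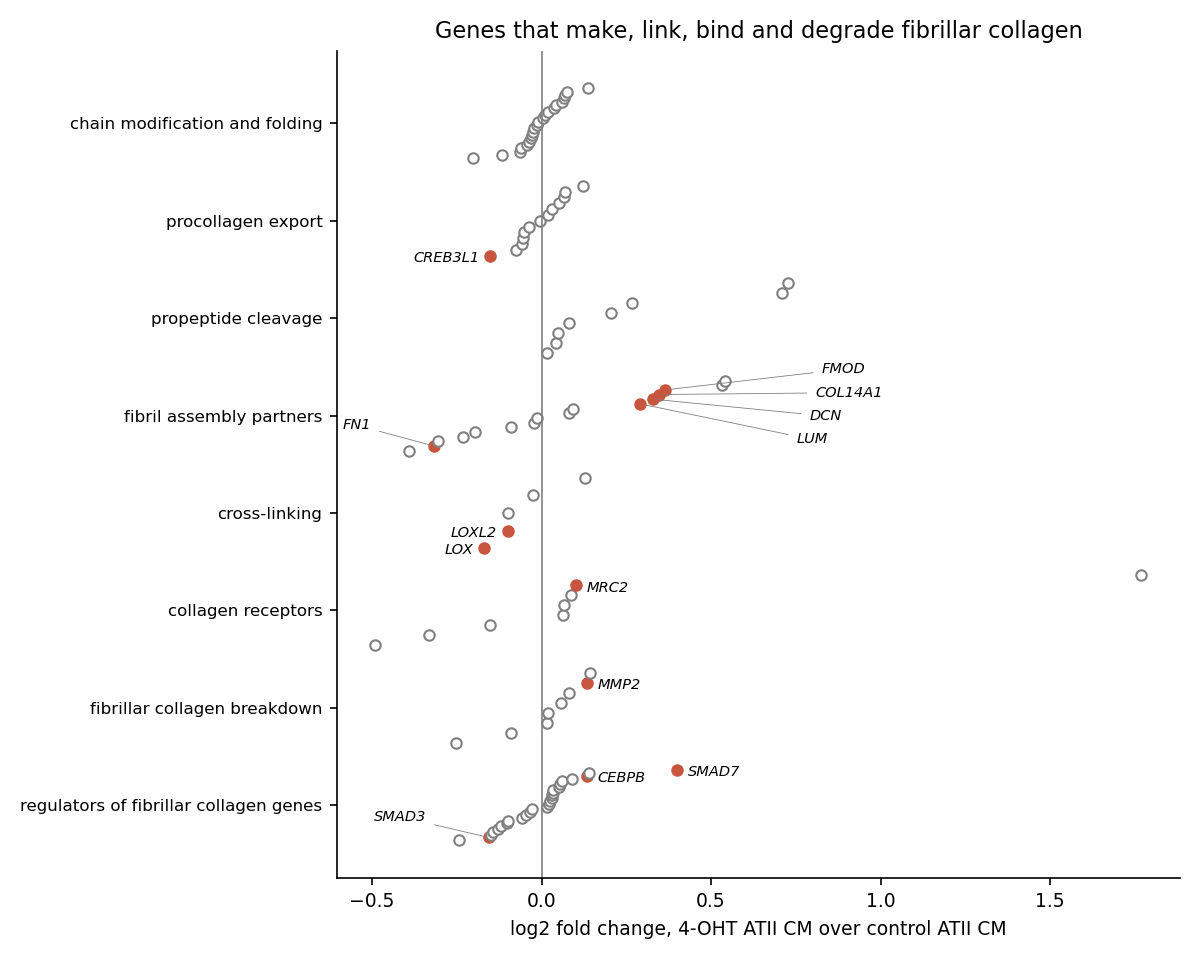
Log2 fold change in 4-OHT ATII CM over control ATII CM of 106 tested genes that act on fibrillar collagen, in 8 rows by role (the list of other fibrillar chains had no tested gene). Filled and named points are the 13 DEGs at an adjusted p below 0.05 from edgeR, and open points did not pass.

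The genes whose log2 CPM followed COL1A1 and COL3A1 most closely over the 6 libraries were also sought among 9202 genes with a mean of at least 10 CPM. For COL1A1 these were ECPAS, EPG5 and LAMB2 (Pearson r = 0.995, 0.993 and 0.992), with log2 fold changes of -0.11, -0.26 and -0.072. For COL3A1 they were TNFRSF19, EXOC4 and BMP5 (Pearson r = 0.998, 0.996 and 0.996), with log2 fold changes of 0.20, 0.094 and 0.40. These fold changes are a description, since genes chosen for following a chain share its difference between groups. The genes closest to COL1A1 have exons of 8449, 13740 and 6865 bases, all longer than the median of 5439, whereas among those closest to COL3A1 TNFRSF19 (5113 bases) and BMP5 (3952 bases) are shorter and EXOC4 (9466 bases) is longer. The 3 named for each head longer lists, since over 6 libraries in 2 groups 282 genes had r above 0.9 with COL1A1 and 534 with COL3A1.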

How the data were processed

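RNA-Seq libraries of MRC5 cells in control ATII CM (3) and 4-OHT ATII CM (3) were analysed from the deposited table. Per the submitters' notes and the study's methods, the authors used Trim Galore for trimming, HISAT2 2.1.0 for mapping to GRCh38 and featureCounts 1.6.5 for counting per gene. The values the authors deposited are raw counts per gene, without normalization, beside each gene's merged exon length. The annotation release and the strand setting of the counting are not given in the sources used here. Every line's exon coordinates merged to its stated length. The table has 58721 lines for 58676 identifiers, and the counts of 45 listed on both sex chromosomes were summed. Symbols came from GENCODE release 44.

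Genes with at least 10 counts over the 6 libraries were tested with edgeR 4.0.16 (R 4.3.3), by the quasi-likelihood test on TMM-normalized counts with group as the only term, and adjusted by Benjamini-Hochberg over 19072 genes at 0.05. CPM use TMM library sizes, with a prior count of 2 on the log2 scale. Standard errors were derived from the log2 fold change and the F statistic. The common dispersion's square root was 4.36%, and the chi-square of replicate pairs, divided by its degrees of freedom, was 2.12 to 6.03, so none was a copy of another. Length trends were splines of 5 degrees of freedom on genes above a mean log2 CPM of 3, removed as offsets. Ratios used an exact permutation test (scipy 1.17.1). Near copies were sought with BLAST 2.17.0.

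Alternatives were DESeq2 1.42.0, limma-voom (limma 3.58.1), median-of-ratios or no scaling, other filters, a replicate block, length and GC trends, thinning to 17691849 counts and leaving out each library, 18 fits in all with the one added after seeing the data. Tests were tested on simulated data. Named genes are all members, in each pathway list the DEGs and the gene highest per kb, genes that overlap a member, and the 3 genes most correlated with COL1A1 and COL3A1. Also named are the marker DEGs, markers at 0 in every library and some genes that overlap another named gene. PLOD3, SERPINH1, TIMP2, MMP1, CTSK, MMP14, BGN, PRELP, OGN, COL12A1, ITGA1, ITGA2, MMP9, MMP13, COL2A1 and COL11A2 were named after their values were seen. The members and lists were chosen with earlier results of these data known, so no list is independent evidence.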

Additional observations from a re-analysis of the deposited data

How the results depend on the processing

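COL3A1 was a DEG in every alternative run, and COL1A1 kept its sign in all. The number of chains called was 1, 2 with limma-voom, library totals only, filterByExpr, the exon length trend removed, that with a replicate block, or control ATII CM 2 left out with the trend removed, and 3 with no filter on low counts. Leaving out 1 library gave 1 to 3. COL1A1 passed with limma-voom (-0.093, adjusted p = 0.0457), library totals only (-0.099, 0.0383), no filter (-0.084, 0.0117), filterByExpr (-0.095, 0.0473), the length trend removed (-0.083, 0.0245), that with the block (-0.083, 0.0157), and without control ATII CM 2 and the trend (-0.10, 0.000301). Single libraries left out gave -0.14 to -0.070. COL5A2 passed with no filter (0.093, 0.0328).

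The sign turned for 3 chains that never passed with the opposite sign. COL1A2 was 0.0035 with the length trend removed, 0.0051 with the GC trend too and 0.0034 with the trend and block, and -0.065 to 0.012 over single libraries left out. COL5A1 was 0.0054 with no filter and 0.015, 0.036 and 0.015 with the same 3 trend fits, and -0.054 to 0.022 over single libraries left out. COL27A1 was 0.015 with both trends removed, and -0.082 to 0.020 over single libraries left out. The cause was not tested. By level, COL27A1 was in place 6 and COL11A1 in place 7 without division by length and with canonical lengths.

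Over all genes, 533 to 1530 were called with 1 library left out, against 1090. Of the pathway genes, 8 to 20 were called with 1 library left out and 21 without control ATII CM 2 and the length trend, against 13. With 1 library left out, 2 to 8 of the fibril assembly partners were called, 0 to 3 genes of breakdown, 0 to 2 receptors, 1 to 2 lysyl oxidases, 2 to 3 regulators, and 0 to 1 in both folding and export. Library totals only gave 511 genes up and 579 down, against 563 and 527. Same-numbered libraries had deviations correlated at -0.0145, -0.104 and -0.0931, and 4-OHT ATII CM 2 correlated best with control ATII CM 3 (0.161). These values showed no pairing by replicate number, but with so few libraries they cannot exclude it. With the replicate number as a block, 985 genes, 1 chain (COL3A1, 0.18, adjusted p = 0.00121) and 10 pathway genes were called, and COL1A1 was at -0.091 (adjusted p = 0.0654).

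Depth limits COL24A1 and COL5A3, whose 158 to 346 counts a library leave 95% intervals of 0.015 to 0.40 and -0.33 to 0.0059 on the log2 scale. With groups of 3, no test for single outlying libraries was made.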
